A study of Arabidopsis thaliana with 18 samples.

Results

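The genes described here are 9 Arabidopsis loci whose transcripts are commonly read as markers of sugar starvation and of the kinase SnRK1. They are ASN1 (AT3G47340), SEN1 (AT4G35770), DIN2 (AT3G60140), DIN10 (AT5G20250), TPS8 (AT1G70290), TPS9 (AT1G23870), TPS10 (AT1G60140), TPS11 (AT2G18700) and AKINBETA1 (AT5G21170). They were chosen by locus, with earlier results of these data known, so counts of markers are descriptions. All 9 of the 9 loci were found, each with 1 probe set of that locus alone, among 6847 probe sets and 6481 loci in the deposited table. Levels came from Affymetrix ATH1 arrays hybridised with total RNA of whole seedlings of the Col-0 ecotype, either wild type or carrying the mutant allele jmj17-1 of the histone demethylase gene JMJ17. All seedlings grew on half-strength medium with no sucrose and spent 4 days in the dark. They were then either not lit or given 2, 4 or 8 h of light. Each genotype had 3 arrays in the dark and 2 at each light time, 18 arrays in 8 groups.

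SnRK1 is the plant kinase of the family to which yeast SNF1 and mammalian AMPK belong, and it is active when carbon or energy runs short. It raises transcripts for breaking down stored carbon and amino acids and lowers those for growth, and sugar or light reverses this within hours. Trehalose-6-phosphate, a signal of sucrose supply made by trehalose-phosphate synthase, inhibits the kinase. Seedlings kept in the dark without sucrose lack both photosynthesis and a supplied sugar, and the time course asks how marker levels move when light arrives and whether loss of JMJ17 alters that.

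Some limits touch every result. No group was kept in the dark for the added hours, so light and elapsed time cannot be told apart. In whole seedlings, fewer cells of a type and less RNA per cell cannot be told apart either. Nothing in the labels tells whether the replicates grew as separate cultures. The p-values then cover only how far these samples spread, which can be technical. JMJ17 has 0 probe sets in the table used and is not analysed here, so the genotype labels were not checked by the mutated gene. A second deposited file gives 16 of the 18 arrays under other titles. By the titles used here CA1, a leaf carbonic anhydrase gene that rises in the light, lay between -2.60 and -1.32 on the centred log2 scale in the 6 dark arrays and between -0.21 and 0.97 in the 12 light arrays. By the titles of that second file the dark arrays ran from -2.28 to 0.97 and the light arrays from -2.60 to 0.94. The array jmj17-1 dark replicate 2 stood apart from the other 2 arrays of its group, with a mean correlation to them of 0.985. The table keeps 6847 of 22810 probe sets, and every probe set kept had an unadjusted p of at most 0.0237 in jmj17-1 at 2 h against dark, so a gene without a difference there is not in the table.

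The markers were bright on these arrays. The dimmest group mean among them, of TPS10, was above 70.8% of all group means in the table, and the brightest, of DIN10, was exceeded by 0.0602% of them.

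The first role is nitrogen storage and senescence. ASN1 encodes the dark-inducible glutamine-dependent asparagine synthetase, which moves nitrogen into a carbon-poor carrier. Its RMA intensities in the wild-type dark arrays were 5220, 5620 and 5392. After 2 h of light they were 2413 and 1833, after 4 h 3416 and 3819, and after 8 h 2911 and 2966. All wild-type light arrays were below all dark arrays, and the 2 h arrays were the lowest. In jmj17-1 the dark arrays read 5873, 5243 and 5070, and the 2 h arrays read 1503 and 1548. The 4 h arrays of jmj17-1 read 2902 and 3019, and the 8 h arrays 3354 and 3215. The dark groups of the genotypes overlapped, while the 2 h arrays of jmj17-1 were below both of the wild type and below every other array. SEN1, a senescence-associated and dark-inducible gene, read 7996, 8445 and 7519 in the wild-type dark and 3179 and 2643 after 2 h. The later wild-type arrays read 5326 and 4719 at 4 h, then 4659 and 4177 at 8 h. In jmj17-1, SEN1 read 8329, 7524 and 8025 in the dark, 2024 and 2047 after 2 h, 4247 and 4388 after 4 h, and 4934 and 4911 after 8 h. SEN1 thus had its lowest 2 arrays in the mutant at 2 h, and its dark groups overlapped between genotypes.

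Sugar release and sugar metabolism come next. DIN2 encodes a beta-glucosidase induced in the dark. It read 4035, 4186 and 4072 in the wild-type dark, 2421 and 2205 after 2 h, 3352 and 2693 after 4 h, and 1732 and 2082 after 8 h. In jmj17-1 it read 4007, 3801 and 4273 in the dark, 1789 and 1767 after 2 h, 2264 and 2254 after 4 h, and 1718 and 1869 after 8 h. Wild-type DIN2 was lowest at 8 h, unlike ASN1 and SEN1, and the 2 h and 8 h arrays of jmj17-1 overlapped. DIN10 encodes a protein of the raffinose synthase family. It read 7868, 8303 and 8328 in the wild-type dark, 3705 and 3818 after 2 h, 8003 and 7977 after 4 h, and 7106 and 6919 after 8 h. In jmj17-1 its values were 8442, 8215 and 8297 in the dark, 4512 and 3985 after 2 h, 7532 and 7540 after 4 h, and 7751 and 7536 after 8 h. The low point of DIN10 was confined to the 2 h arrays in both genotypes, and the wild-type 4 h arrays lay within the range of the dark arrays.

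TPS8, TPS9, TPS10 and TPS11 are class II members of the trehalose-phosphate synthase family, which carry synthase and phosphatase domains and are mostly without measurable synthase activity. TPS8 lay between 1131 and 1175 in the wild-type dark, between 762 and 788 after 2 h, and between 1072 and 1151 after 4 h. TPS9 lay between 1023 and 1138 in the dark and between 584 and 620 after 2 h, and its 4 h arrays at 788 and 693 remained below the dark. TPS10 lay between 508 and 565 in the dark and read 315 and 316 after 2 h, then 517 and 507 after 4 h. All 3 had their lowest wild-type arrays at 2 h, and at 4 h the TPS10 arrays overlapped the dark ones. TPS11 lay between 2593 and 2694 in the dark, read 1928 and 1911 after 2 h, and 2479 and 2316 after 4 h. In jmj17-1 TPS8 ran from 942 to 1266 in the dark and from 724 to 798 after 2 h, and TPS9 from 846 to 1111 and from 549 to 602. TPS10 ran from 524 to 580 in the mutant dark and from 330 to 375 after 2 h, and TPS11 from 2355 to 2747 and from 1759 to 2041. For all 4 genes the 2 h arrays of jmj17-1 were below its dark arrays, and dark replicate 2 was the lowest dark array. Of all probe sets, 57.1% had the mutant 2 h arrays all below its dark arrays and 42.9% all above. Nothing is read from that separation. AKINBETA1, a regulatory beta subunit of the SnRK1 complex itself, read 2946, 2909 and 2841 in the wild-type dark, 1560 and 1313 after 2 h, 1974 and 2062 after 4 h, and 1653 and 1668 after 8 h. The AKINBETA1 light arrays were all below the dark arrays in the wild type. In jmj17-1 AKINBETA1 read 2878, 2698 and 2796 in the dark, 1325 and 1391 after 2 h, 1720 and 1715 after 4 h, and 1793 and 2059 after 8 h.

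**Figure D1:**
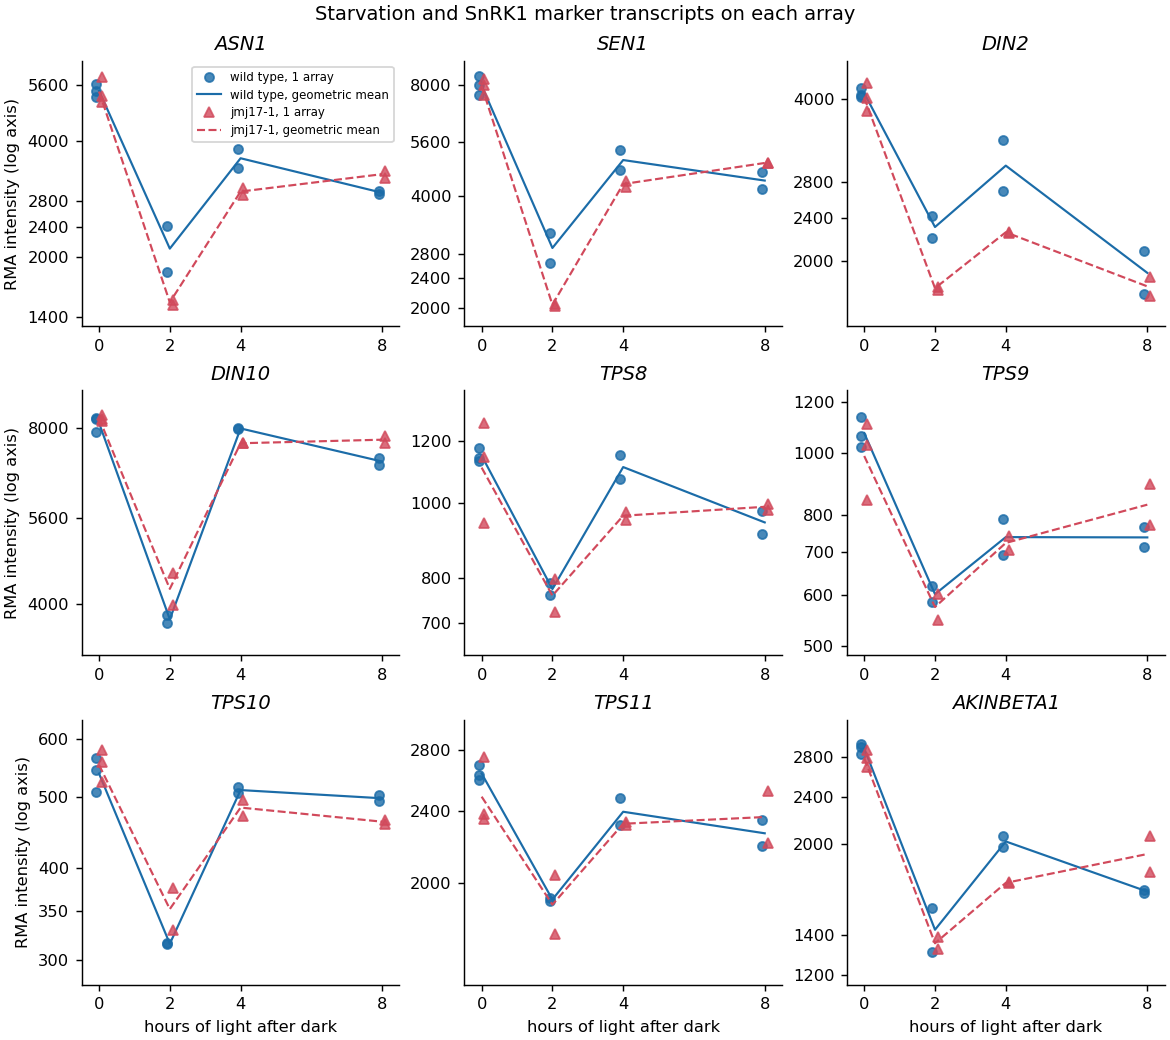
RMA intensity (log axis) of the 9 marker genes in each array against hours of light after the dark; circles and solid lines are wild type, triangles and dashed lines jmj17-1, points single arrays and lines geometric means. All 9 genes are low at 2 h, and ASN1 and SEN1 are lowest in the jmj17-1 arrays at 2 h.

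After 2 h of light all 9 markers fell in the wild type (limma fitted across all probe sets, adjusted p under 0.05 by Benjamini-Hochberg). In that comparison 49.0% of all probe sets fell, so falling is common in this table. Every probe set kept differs between dark and 2 h in jmj17-1, and most had an unadjusted p under 0.05 in the wild type too. What that selection does to the wild-type differences at 2 h was not tested, and nothing is read from the wild-type count of 9. The median of the 9 log2 differences was -0.84, beside -0.21 over all probe sets. Falls were largest for SEN1, at -1.46 ± 0.09 (standard error of the log2 difference, adjusted p = 2e-09), and for ASN1, at -1.36 ± 0.10 (adjusted p = 1.41e-08). SEN1 thus went to 36.3% and ASN1 to 38.9% of the dark level. DIN10 was at -1.12 and AKINBETA1 at -1.02, or 46.1% and 49.4% of their dark levels. TPS11 changed least, at -0.46 ± 0.09, and TPS8 fell by 0.57. Of all probe sets, 2.83% had a more negative log2 difference than SEN1 and 30.3% than TPS11. Of the 3 measured root markers, of 6 listed, CASP1 and GL2 moved with the markers in the wild type. These 2 fell by 2 h (-0.53 and -0.59) and rose from 2 to 4 h (0.37 and 0.42). SCR went the other way without passing, with mean log2 values of 8.09 in the dark, 8.23 at 2 h and 8.13 at 4 h. The 3 root markers summed to 2270 to 2337 in the dark, 1631 to 1770 at 2 h and 1989 to 2197 at 4 h. CASP1 gave most of that sum, at 1982 to 2026 in the dark, where GL2 read 28 to 31. The 2 measured green shoot markers, of 5 listed, summed to 2106 to 2374 in the dark and 9446 to 9615 at 2 h. These 2, CA1 and RCA, both rose at 2 h. Their sum cannot tell the share of shoot tissue from a change of the genes themselves. The part of the root and shoot markers in the result was not tested. In jmj17-1 all 9 fell as well, from -1.97 ± 0.09 for SEN1 to -0.39 ± 0.09 for TPS11. In the mutant comparison 57.1% of probe sets fell and 99.8% passed in either direction, since each probe set kept in the table differs there, and nothing is read from that count.

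**Figure D2:**
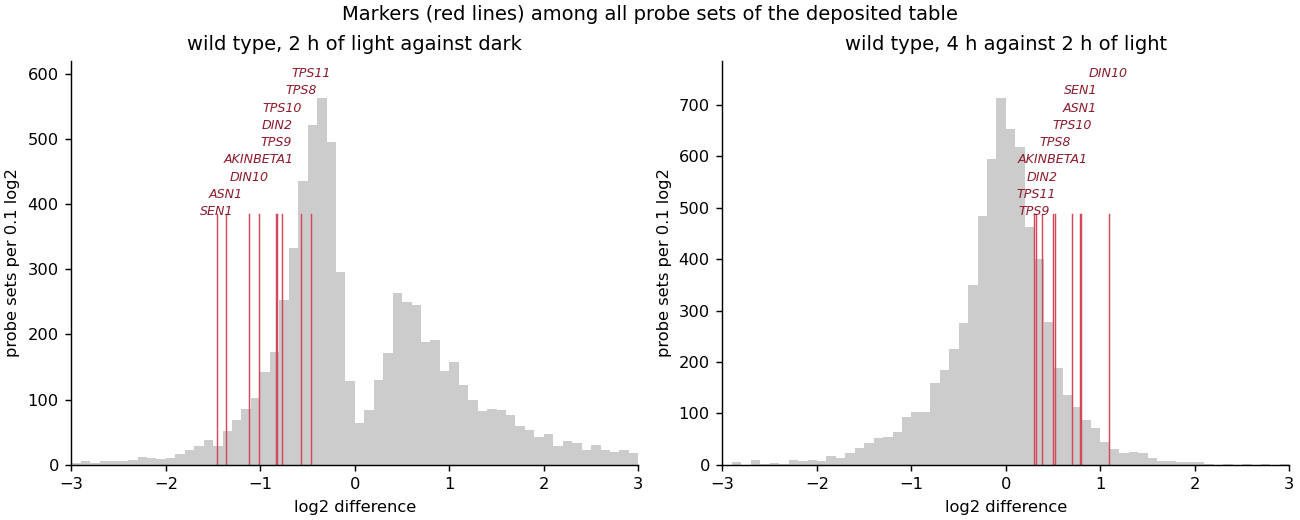
Numbers of probe sets per 0.1 of log2 difference (grey) and the 9 markers (red lines) on an axis that ends at -3 and 3, for wild type at 2 h of light against dark and at 4 h against 2 h. The markers lie between -1.46 and -0.46 in the former and between 0.30 and 1.09 in the latter, where the medians over all probe sets are -0.21 and -0.03.

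The low at 2 h did not last. From 2 to 4 h of light 8 of the 9 markers rose in the wild type, where 20.4% of all probe sets rose, and the median of the markers was 0.52 beside -0.03 over all probe sets. DIN10 rose by 1.09 ± 0.08 (adjusted p = 4.74e-08), SEN1 by 0.79, ASN1 by 0.78 and TPS10 by 0.70. TPS9 was the exception, at 0.30 ± 0.12 (adjusted p = 0.0567). In jmj17-1 all 9 rose over the same interval, where 20.6% of all probe sets did, from 0.29 for TPS11 to 1.08 for SEN1. The mutant count was 4 without jmj17-1 2 h replicate 1 and 5 without either of its 4 h arrays, while every difference stayed above 0. The comparisons from 2 to 4 h share the 2 h arrays with those from dark to 2 h, so they are given side by side and not as separate evidence.

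The markers regained unequal shares of their 2 h fall. Expressed as the share of the log2 fall that was undone by 4 h in the wild type, DIN10 regained 97.2%, TPS8 91.4% and TPS10 90.3%. TPS11 regained 69.7%, ASN1 57.3% and SEN1 54.1%. AKINBETA1 regained 48.7%, DIN2 45.9% and TPS9 35.4%. These shares are descriptions of group means and were not tested against each other. Against the dark, 5 markers were still lower after 4 h in the wild type, where 40.1% of all probe sets were. These were SEN1 (-0.67 ± 0.09), ASN1 (-0.58 ± 0.10), TPS9 (-0.54 ± 0.11), AKINBETA1 (-0.52 ± 0.08) and DIN2 (-0.45 ± 0.10). DIN10 (-0.03), TPS8 (-0.05), TPS10 (-0.07) and TPS11 (-0.14) did not pass. In jmj17-1 at 4 h the count was 6, where 44.4% of all probe sets fell, and TPS10 (-0.19 ± 0.08, adjusted p = 0.034) was the addition, a call lost with only the arrays compared (adjusted p = 0.0885).

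After 8 h of light 8 of 9 markers were below their dark level in the wild type, and 48.6% of all probe sets fell there. DIN2 had the largest difference, -1.11 ± 0.10 (adjusted p = 7.56e-08), at 46.3% of the dark level and below its own 2 h mean. ASN1 (-0.88), SEN1 (-0.85) and AKINBETA1 (-0.80) followed, at 54.3%, 55.3% and 57.3% of dark. TPS10 did not pass (-0.11 ± 0.08, adjusted p = 0.194), and DIN10 at -0.22 and TPS11 at -0.22 fell slightly. The TPS11 call held in 13 of the 18 fits that each left out 1 array, and was lost without any 1 of the wild-type dark or 8 h arrays. In jmj17-1 6 markers were below dark at 8 h, beside 47.7% of all probe sets. DIN2 was again lowest there (-1.17 ± 0.10), and DIN10, TPS8 and TPS11 did not pass. The TPS9 call there (-0.25, adjusted p = 0.0478) held in only 4 of those 18 fits. From 4 to 8 h in the wild type 3 markers fell, DIN2 (-0.66), ASN1 (-0.30) and AKINBETA1 (-0.28), beside 22.4% of all probe sets. That count was 1 with only the arrays compared and 5 after quantile normalization, and DIN2 was called in both. With 1 array left out, ASN1 passed in 5 of 18 fits, AKINBETA1 in 14 and DIN2 in 18. In jmj17-1 over the same interval 1 marker, DIN2, fell (-0.33 ± 0.11, adjusted p = 0.0293), beside 20.0% of all probe sets. That call was lost without any 1 of the 4 mutant arrays compared, with an adjusted p of up to 0.169.

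**Figure D3:**
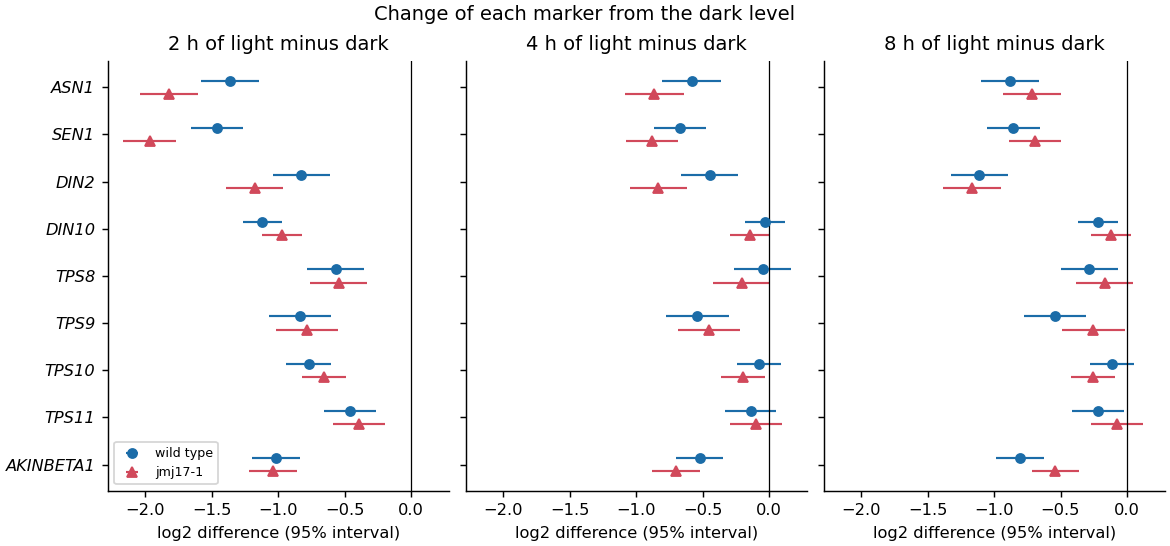
Log2 difference of each marker from its dark level after 2, 4 and 8 h of light, with 95% intervals; circles are wild type and triangles jmj17-1. In the wild type DIN10, TPS8, TPS10 and TPS11 lie between -0.14 and -0.03 at 4 h, while DIN2 reaches -1.11 in the wild type and -1.17 in jmj17-1 at 8 h.

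The order of the 8 group means differed between markers. For ASN1 it ran from wild-type dark and jmj17-1 dark, whose arrays overlapped, through wild type at 4 h, jmj17-1 at 8 h, jmj17-1 at 4 h and wild type at 8 h to wild type at 2 h and jmj17-1 at 2 h. In that order the ASN1 arrays of jmj17-1 at 4 h and wild type at 8 h also overlapped, and all other neighbours were separate. SEN1 had the same ends, with overlap between wild type at 4 h and jmj17-1 at 8 h and between wild type at 8 h and jmj17-1 at 4 h. For DIN2 the lowest 3 groups, wild type at 8 h, jmj17-1 at 8 h and jmj17-1 at 2 h, overlapped from neighbour to neighbour. For DIN10 both dark groups and wild type at 4 h overlapped at the top, and wild type at 2 h was lowest. TPS9 and TPS11 had overlapping neighbours throughout, except for a gap above wild type at 2 h. Across the 8 group means the 36 pairs of markers had Pearson correlations from 0.49 to 0.998, with a median of 0.90. These correlations share arrays and the dark-to-light change and are descriptions.

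No marker passed the test between the genotypes in the dark. The count was 0 of 9 in limma, where 1.80% of all probe sets passed in either direction. At an unadjusted p under 0.05 there were 0 markers, beside 21.8% of all probe sets. The differences of jmj17-1 minus wild type ran from -0.12 for TPS9 to 0.04 for TPS10. The 95% interval for ASN1 was -0.20 to 0.19 and that for SEN1 -0.18 to 0.17. A summed level of 2 measured green shoot markers, of 5 listed, was 1899 to 4357 in the mutant dark arrays and 2106 to 2374 in the wild type. The 3 measured root markers, of 6 listed, summed to 2190 to 2370 in the mutant and 2270 to 2337 in the wild type. The 1 measured marker of seed remains, of 4 listed, read 18.7 to 48.2 in the mutant and 83.9 to 166 in the wild type. This seed marker passed the threshold, at -1.76, where 1.80% of all probe sets passed in either direction. Its bearing on the 9 markers was not tested.

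After 2 h of light 2 markers were lower in jmj17-1, beside 4.29% of all probe sets. The mutant 2 h arrays used here are those in which every probe set kept in the table differs from the mutant dark. What that does to the 2 h differences was not tested. SEN1 was lower by 0.51 on the log2 scale (95% interval -0.73 to -0.29, adjusted p = 0.00907), and ASN1 was at -0.46 (95% interval -0.70 to -0.22, adjusted p = 0.0288). The wild-type 2 h arrays of ASN1, 2413 and 1833, were farther apart than the mutant ones, 1503 and 1548. Both calls were lost without wild-type 2 h replicate 1, where ASN1 was at -0.27 (adjusted p = 0.253) and SEN1 at -0.38 (adjusted p = 0.11), and without either mutant 2 h array. They were also lost when only the 2 h arrays were fitted. DIN2 was at -0.38 (adjusted p = 0.0612), with its mutant arrays below both wild-type arrays. DIN10 was in the opposite direction, at 0.17 (adjusted p = 0.218), again without overlap. Such separation was common, as 33.4% of all probe sets had both mutant arrays below both wild-type arrays and 20.2% had them above. The median over the 9 was -0.07, beside -0.04 for all probe sets. Green shoot marker sums were 10977 to 11026 in the mutant and 9446 to 9615 in the wild type at that time, and root marker sums 1839 to 1852 and 1631 to 1770. Their part in the difference was not tested.

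At 4 h 0 of 9 markers passed between genotypes in limma, where 2.72% of all probe sets passed in either direction. At an unadjusted p under 0.05 there were 3 markers, beside 15.1% of all probe sets. All 9 differences were negative, with a median of -0.21 beside -0.01 over all probe sets. The 9 markers were read on the same arrays, so these signs are not 9 separate results. DIN2 was nearest the threshold, at -0.41 ± 0.11 (adjusted p = 0.0617), where its mutant arrays of 2264 and 2254 lay below 3352 and 2693. Of all probe sets, 27.7% had both mutant arrays below both wild-type arrays there. Without jmj17-1 dark replicate 2 it passed at the same -0.41 (adjusted p = 0.0395), and without wild-type 4 h replicate 1 it was at -0.25 (adjusted p = 0.362). At 8 h the count was 0 in limma, where 1.27% of all probe sets passed, and 1 marker had an unadjusted p under 0.05, beside 14.6% of all probe sets. The 8 h differences were positive for 7 of 9, including ASN1 and SEN1, both at 0.16. Their median was 0.12, beside -0.003 over all probe sets, and the same limit on counting signs holds. Averaged over the 4 times with equal weights, 1 marker, DIN2, was lower in jmj17-1, at -0.22 ± 0.05 (adjusted p = 0.0164), beside 5.80% of all probe sets. That call was lost without wild-type 8 h replicate 2 (-0.19, adjusted p = 0.052), and after quantile normalization ASN1 (-0.18) and SEN1 (-0.17) passed too.

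Whether the light response itself differed between genotypes was tested as an interaction. The mutant dark and 2 h arrays used here are those between which every probe set kept differs. What that does to these terms was not tested. At 2, 4 and 8 h 0 of 9 markers passed in limma, where 0.102%, 0.102% and 1.14% of all probe sets passed in either direction. At an unadjusted p under 0.05 there were 3, 1 and 1 markers, beside 13.8%, 13.0% and 20.4% of all probe sets. The interactions were nearest to passing for SEN1 (-0.51 ± 0.13, adjusted p = 0.133) and ASN1 (-0.46 ± 0.15, adjusted p = 0.202) at 2 h. Without wild-type 2 h replicate 2 both passed. A comparison added after the values were seen asked whether the genotype difference changed from 2 to 8 h. It rose for SEN1 by 0.67 ± 0.14 (adjusted p = 0.0225) and was 0.62 ± 0.16 for ASN1 (adjusted p = 0.0527), beside 2.12% of all probe sets that rose. SEN1 went from -0.51 at 2 h to 0.16 at 8 h. Its call held in 12 of 18 fits with 1 array left out, with an adjusted p of up to 0.105.

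**Figure D4:**
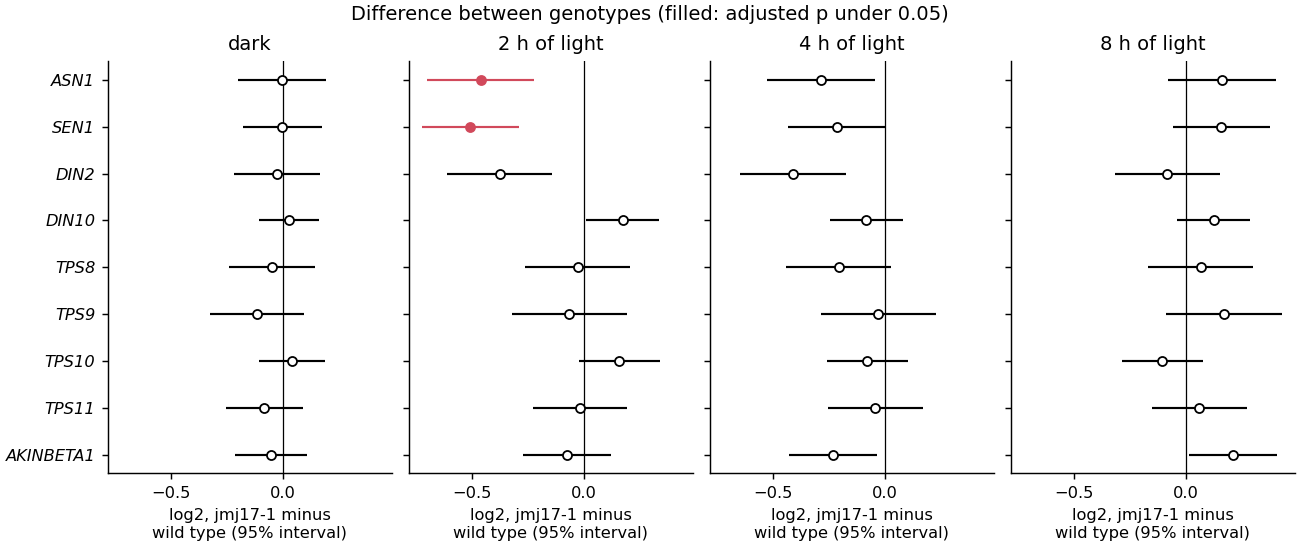
Log2 difference of jmj17-1 minus wild type for the 9 markers in the dark and after 2, 4 and 8 h of light, with 95% intervals; filled points have an adjusted p under 0.05. Only SEN1 (-0.51) and ASN1 (-0.46) at 2 h are filled.

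Other genes of the pathway were read from lists of known function. Of 13 listed genes of the SnRK1 and TOR kinase complexes 5 were among the probe sets kept, which all differ in jmj17-1 at 2 h against dark. In the wild type 4 of these 5 fell at 2 h, with a median of -0.36, where 49.0% of all probe sets fell. KIN10, the main catalytic subunit of SnRK1, fell by 0.40 ± 0.08 (adjusted p = 0.00029) and was at -0.43 after 8 h. GRIK1, a kinase that activates SnRK1, was at -0.31 at 2 h and -0.91 at 8 h, and RAPTOR1B, a partner of the growth kinase TOR, was at -0.45 and -0.55. TOR itself was at -0.22 at 2 h (adjusted p = 0.061). In the trehalose pathway 2 of 18 listed genes beside the 4 markers were among the probe sets kept, and they moved in opposite directions. TPS1, the active trehalose-phosphate synthase, rose by 1.30 ± 0.13 at 2 h and by 2.12 at 8 h, from wild-type dark intensities of 14 to 18. TPS6, of class II like the markers, fell, to -0.67 at 2 h and -0.50 at 8 h.

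Of 9 listed bZIP factors of groups C and S1, which act downstream of SnRK1, 3 were among the probe sets kept. BZIP11, whose translation is repressed by sucrose, rose by 1.13 at 2 h, whereas BZIP44 fell by 0.38 and BZIP63, a direct SnRK1 substrate, fell by 0.51. By 8 h BZIP63 had risen to 0.32 above the dark and BZIP44 was at -1.29. All 13 other listed dark and starvation genes were among the probe sets kept. The list was chosen with earlier results of these data known, so its counts are a description. At 2 h in the wild type 11 fell and 1 rose, with a median of -1.09, where 49.0% of all probe sets fell. GDH1, a glutamate dehydrogenase, fell by 1.97 ± 0.10 (adjusted p = 2.96e-10), from 812 to 832 in the dark to 197 to 224. DIN4 and DIN3, subunits of the enzyme complex that breaks down branched-chain amino acids, were at -1.78 and -1.76. PPDK, pyruvate orthophosphate dikinase, fell by 0.51, and DIN11 fell by 1.11 at low intensities of 11 to 14 in the dark and 6 after 2 h. From 2 to 4 h 10 of the 13 rose in the wild type, where 20.4% of all probe sets rose, among them GDH1 by 1.13 and DIN3 by 1.12.

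Relatives of the markers did not all follow them. ASN2, the second asparagine synthetase gene measured, rose in the wild type by 1.15 ± 0.23 at 2 h, 2.15 at 4 h and 4.39 at 8 h, where ASN1 was at -0.88. In intensity ASN2 went from between 32 and 44 in the dark to between 735 and 761 at 8 h. Of the raffinose synthase family to which DIN10 belongs, RS5 rose by 1.85 at 2 h while RS2 fell by 0.76 and was at 0.65 at 8 h. CINV1, a cytosolic invertase that splits sucrose, is no relative of a marker. It was the 1 gene kept of 7 listed as sugar-induced. In the wild type it moved with the markers, falling by 1.28 at 2 h and rising by 0.94 from 2 to 4 h. Between genotypes CINV1 was lower in jmj17-1 in the dark, at -0.49 ± 0.09 (adjusted p = 0.0217), where 1.80% of all probe sets passed in either direction. GDH1 was lower at 4 h, at -0.51 ± 0.11 (adjusted p = 0.0273), where 2.72% passed. STP4, a sugar transporter gene named after its values were seen, was lower at 4 h, at -0.47 (adjusted p = 0.0351). Averaged over the 4 times, 1 of the 3 measured bZIP factors was higher in jmj17-1. At an unadjusted p under 0.05 in limma there was 1 of the 3, beside 23.2% of all probe sets in either direction. In that average 1 of the 13 dark and starvation genes was lower, beside 5.80% of all probe sets. Group means of BZIP44 were higher in jmj17-1 at each time, in the dark 7.81 against 7.47 on the log2 scale.

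**Figure D5:**
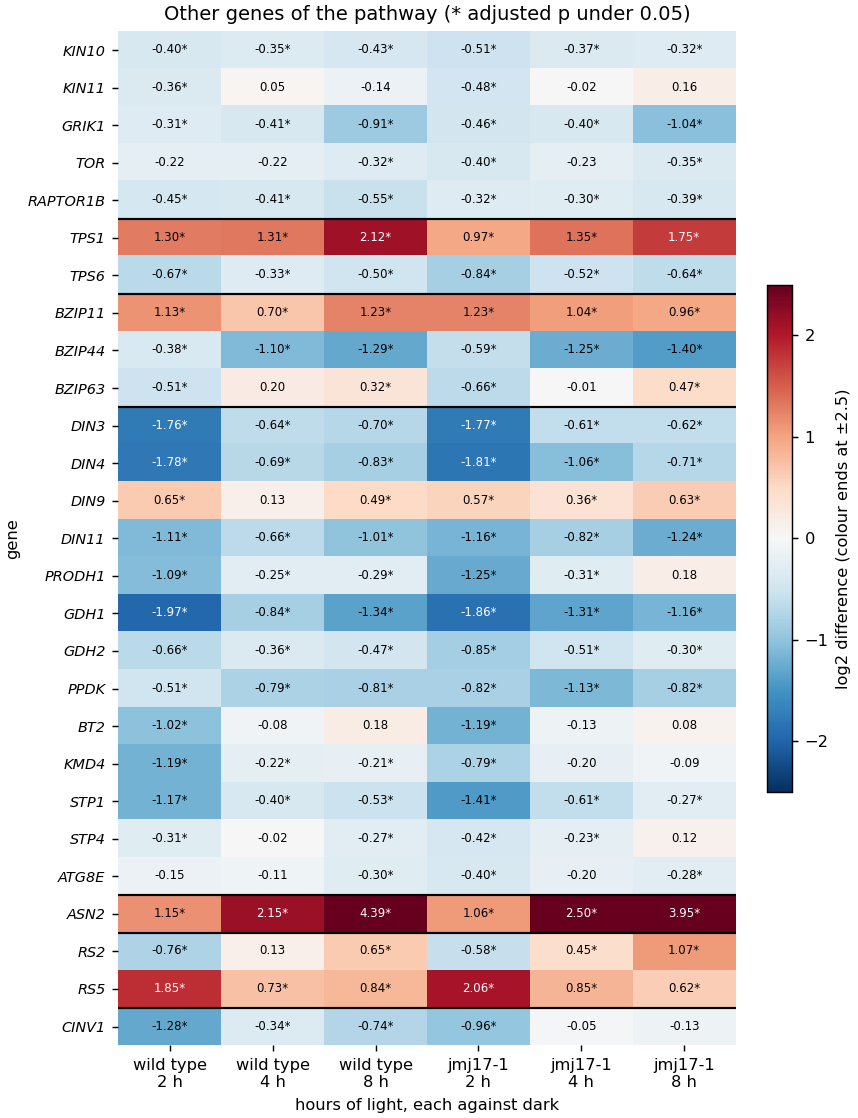
Log2 difference from dark of other genes of the pathway after 2, 4 and 8 h of light in each genotype, with an asterisk for an adjusted p under 0.05; lines separate the gene lists. TPS1, ASN2 and RS5 are higher than in the dark at each light time, while GDH1, DIN3 and DIN4 are lower.

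Genes outside the set with the most similar pattern over the 8 group means were found by Pearson correlation among 6472 loci. The closest to ASN1 was GDH2, another glutamate dehydrogenase gene (r = 0.988), and the closest to SEN1 was STY46 (r = 0.991). For DIN2 it was AT1G22110 (r = 0.989), for DIN10 AT5G63480 (r = 0.992) and for AKINBETA1 IKU1 (r = 0.992), with GDH1 next at 0.992. For TPS8 it was TLP9 (r = 0.994), for TPS9 AT1G78890 (r = 0.992), for TPS10 CRF12 (r = 0.986) and for TPS11 AT4G05070 (r = 0.996). These values describe 8 means that share the dark-to-light change, and no test was made on them.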

How the data were processed

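Total RNA of 18 seedling samples was hybridised to ATH1 arrays, and GCOS 1.4 is the scanner software in the submitters' processing notes. The authors summarised probes by RMA and kept probe sets with p up to 0.05 in a moderated test and a fold from 1 upwards, per the file headers, which do not say what was compared. Their table gives linear RMA intensity from 3.22 to 10892 for 6847 probe sets, and its second block and a second deposited file give centred log2 values, used as checks and as an alternative. Array medians ran from 144 to 161, and the number of arrays limits the precision.

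Samples were grouped by their titles. Log2 intensities of the 18 arrays were fitted together, each group having its own mean, by lmFit, contrasts.fit and eBayes of limma 3.58.1 (R 4.3.3), with 18 comparisons and 1 added later, Benjamini-Hochberg over 6847 probe sets and an adjusted p under 0.05. The script was tested on simulated data. Each gene is shown by its brightest 1-locus probe set. Changes are relative to the deposited normalization.

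All 9 markers are named. From other lists up to 5 genes past the threshold were named by size at 8 h in the wild type, and the 3 genes most alike per marker were listed. Members and lists were chosen with earlier results of these data known. Names were taken from that table and from RefSeq (TAIR10.1). No coordinates are printed since no source used here names their build.

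Replicate numbers were checked for pairing. Deviations of same-numbered dark arrays correlated at -0.03, -0.03 and 0.15, and those of light arrays at 0.09 (2 h), 0.04 (4 h) and 0.22 (8 h). Not every pair was over 0.1, so the numbers were not taken to pair the samples. Alternatives were quantile normalization, median centring, a filter on the dimmest 40 percent, array weights, only the arrays compared, the replicate number as a block, all 22810 probe sets of the second file, each array left out, and, added after seeing the data, that file by its own labels. Figures were drawn with matplotlib 3.10.9.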

Additional observations from a re-analysis of the deposited data

Results flagged for a closer look

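The genotype difference of SEN1 changed between light times. The difference, jmj17-1 minus wild type, was -0.51 at 2 h and 0.16 at 8 h on the log2 scale, a change of 0.67 ± 0.14 (limma interaction between genotype and the 2 light times, adjusted p = 0.0225). The comparison was added after the values were seen, and it uses the mutant 2 h arrays, in which every probe set kept differs from dark. Over the alternatives run on it the adjusted p for SEN1 ranged from 0.00977 to 0.105, and the call was lost without 2 h replicate 1 of the wild type, without either mutant 2 h array, without wild-type 8 h replicate 2 and without either mutant 8 h array. The change stayed positive in each, from 0.53 to 0.80.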

How the results depend on the processing

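Counts are markers past the threshold in limma, of 9. The falls at 2 h of light in either genotype (9 each) and at 4 h in the wild type (5) were the same with each array left out. With 1 array left out, counts ran from 6 to 8 for wild type at 8 h, 6 to 9 and 1 to 4 for wild type at 4 h against 2 h and 8 h against 4 h, 5 to 7 for jmj17-1 at 4 h and also at 8 h against dark, 4 to 9 and 0 to 1 for jmj17-1 at 4 h against 2 h and 8 h against 4 h, 0 to 3 between genotypes at 2 h and averaged, 0 to 1 at 4 h and 0 to 2 for the interaction at 2 h; they stayed at 0 in the dark, at 8 h and for the interactions at 4 and 8 h. Between genotypes at 2 h the count of 2 became 0 with only the arrays compared and 1 with all probe sets of the second file. With array weights 1 marker, DIN2, passed at 4 h, and quantile normalization gave 3 on average and 5 for wild type at 8 h against 4 h, where only the arrays compared gave 1. The cause was not tested. With the replicate number as a block the genotype count at 2 h was 2, and no count moved by over 1.5 times. In wild type at 2 h against dark the median of all probe sets was -0.21, and -0.34 after either quantile normalization or median centring.

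By the second file's own labels, 0 markers passed in every comparison except jmj17-1 at 2 h against dark, where 1 rose, and of 67 marker results called under either labelling 40 had the opposite sign. All results thus rest on the titles of the first table. Each marker has 1 probe set, so averaging probe sets gave no value, and fitting only the arrays compared gave none for the average, which uses all arrays. Only 2 arrays per light group limit what differences between genotypes can pass.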
